A study of Populus ussuriensis with 12 samples.

Results

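The comparison described here is that of roots overexpressing PuHSFA4a with wild-type roots on control medium, without added Zn. It was chosen by library title and holds 6 of the 12 libraries of the series, 3 of the overexpressor (OE control) and 3 of wild type (WT control). The plants were *Populus ussuriensis*, a poplar of northeast Asia, grown in vitro. They had 1 week of pre-culture and 2 weeks on plates and were 21 days old when the roots were taken. All groups shared the half-strength MS medium with agar and sucrose and the same day length and temperature. All samples carry the treatment text with 1.2 mM zinc sulfate; it was taken to hold for the Zn libraries alone, since the control samples' own source labels say control condition. Those 6 libraries, 3 OE Zn and 3 WT Zn, serve below as a second look at the same genotype contrast. The labels name no promoter of the transgene, no number of transgenic lines and no number of plants per library, so each p-value reflects the spread among these libraries, which may be technical. Total counts in the 6 control libraries ran from 15594001 to 20708553. Levels are given as CPM, the counts of a gene scaled to a common library size, and 3 counts, a floor for counting error only, correspond to 0.145 to 0.192 CPM.

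Heat shock factors are transcription factors that bind heat shock elements in promoters, and those of class A carry an activation domain. Class A4 factors have been linked in Arabidopsis to responses to reactive oxygen species, and in rice and wheat to cadmium tolerance. The study asks what more HSFA4a does in poplar roots, and on control medium the question is what the transgene alone changed. The files pair gene IDs of the *P. trichocarpa* annotation with positions but not with names. Apart from the HSFA4 loci and 4 lists of published wood and clock genes, taken from general knowledge, genes are therefore given by ID alone, without a role.

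The locus matched to the overexpressed gene comes first, and its counts do not tell transgene RNA from that of the plant's own gene. HSFA4a was matched to Potri.011G071700, on the minus strand of chromosome 11 from 6828550 to 6830854 in the files' coordinates. It stood at 333, 348 and 343 CPM in the 3 OE control libraries. The libraries labelled WT control 1, 2 and 3 stood at 129.9, 165 and 37.1 CPM. All OE libraries were thus above all WT libraries, but the OE libraries lay close together while the WT libraries differed among themselves. On Zn the WT libraries agreed better, with 32.8, 32.4 and 33.0 CPM, and the OE libraries stood at 266, 238 and 265 CPM. The libraries labelled WT control 1 and 2 therefore stood higher at this locus than every other WT library. They go partly against their label here. Counts of genes without overlap in both media, named gene groups, list medians and chromosome starts below are therefore also given without them. WT then rests on 1 library that is assumed to vary like the OE libraries. WT control below always means the libraries so labelled. OE control had a mean of 341 CPM ± 7.94 (SD, n = 3). The mean over the libraries labelled WT control was 111 CPM ± 66.2 (SD, n = 3). The difference was 3.08-fold (a log2 fold change, log2FC, of 1.62 with SE 0.53) and did not pass the threshold of 0.05 (edgeR quasi-likelihood, adjusted p = 0.492; DESeq2 adjusted p = 0.22). An exact two-sided permutation test over the 6 libraries gave p = 0.1, the smallest that 3 against 3 allows. Without the library labelled WT control 3 the locus was the single gene that passed (log2FC of 1.21, edgeR adjusted p = 0.0244). It also passed when WT control 1 and 2 were both left out (3.20, edgeR adjusted p = 0.000471). That omission takes away the WT libraries with the most HSFA4a counts, which fixes a larger difference.

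Per length, the HSFA4a locus had a mean of 174 FPKM in OE control and 56.6 FPKM in the libraries labelled WT control. The locus Potri.004G062300 (chromosome 4), a related HSFA4 gene, had 21.96 and 24.5 FPKM. The third HSFA4 locus, Potri.014G141400 (chromosome 14), had 8.89 and 7.13 FPKM. By these means the HSFA4a locus was the highest of the 3 in both genotypes, but in WT this rested on WT control 1 and 2, at 65.8 and 85.2 FPKM. In WT control 3 it had 18.7 FPKM, below the 22.7 FPKM of Potri.004G062300. In WT Zn it had 16.8, 16.7 and 17.01 FPKM, also below Potri.004G062300 in each library, at 21.8, 20.5 and 18.9 FPKM. The order of these loci thus differed among the libraries labelled WT. Potri.014G141400 stood at 17.6, 15.9 and 20.1 CPM in OE control and at 13.7, 14.3 and 15.1 CPM in the libraries labelled WT control. Its groups did not overlap, yet the log2 fold change of 0.31 (SE 0.12) did not pass (edgeR adjusted p = 0.482). On Zn the log2 fold change was 0.24, again without overlap. Potri.004G062300 stood at 39.6, 43.6 and 40.9 CPM in OE control against 46.5, 48.3 and 43.4 CPM, with overlap (log2FC of -0.15 with SE 0.08, edgeR adjusted p = 0.604). It overlaps Potri.004G062200 on the opposite strand, and the strand setting of the counting is not given in the sources used here.

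**Figure D1:**
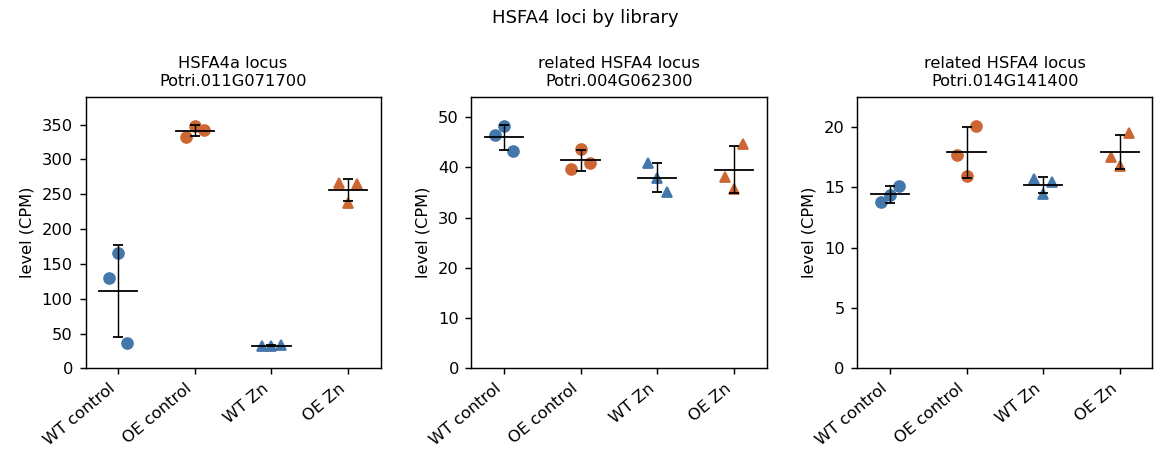
Level in CPM (y axis, from 0) of the 3 HSFA4 loci in each of the 12 libraries, by group; black lines are group means and bars are SD (n = 3). At the HSFA4a locus the OE control libraries lie at 333 to 348 CPM, and the libraries labelled WT control spread from 37.1 to 165 CPM.

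Across the genome no gene passed the edgeR test between genotypes on control medium, while DESeq2 called a small share. After low-count filtering 24875 genes were tested, 24644 of them outside the start of chromosome 13, which is described apart below. With edgeR 0 genes (0%) had an adjusted p under 0.05, the lowest being 0.166. An unadjusted p under 0.05 was reached by 2222 genes (8.93%), 1144 higher in OE (4.6%) and 1078 lower (4.33%). Outside the start of chromosome 13 these were 1013 genes higher in OE (4.11%) and 1078 lower (4.37%), together 8.48%. limma-voom called 0 genes. DESeq2 called 233 of 24387 genes (0.955%), 149 higher (0.611%) and 84 lower (0.344%) in OE. Of the 149, 50 lay at the start of chromosome 13 (22.1% of its genes), and elsewhere DESeq2 called 0.41% of genes higher and 0.348% lower, together 0.757%. Over all genes tested the groups did not overlap for 14.9%, 7.55% higher and 7.34% lower in OE. Groups without overlap were seen outside that region for 1738 genes higher in OE (7.05%) and 1826 lower (7.41%), together 14.5%. The library labelled WT control 3 stood further from its group than the other two, with a chi-square per degree of freedom of 15.1 and 12.99 against them, where they gave 7.41. OE control 1 likewise stood apart from OE control 2 and 3, with 12.04 and 10.6 where these gave 5.52. Without the libraries labelled WT control 1 and 2 edgeR did make calls. WT then rested on the library lowest at the start of chromosome 13, so their number is not read here.

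The 5 genes with the smallest edgeR p were the closest to a call. They passed narrowly when no low-count filter was applied (edgeR adjusted p from 0.0419 to 0.0498), and DESeq2 called each of them. DESeq2 called 0.955% of all genes, but these 5 were chosen by the smallest p in the same libraries. That choice favours passing under other settings, so these calls are no separate support. Potri.009G130000 (chromosome 9, 10598534 to 10614534) stood at 33.5, 36.4 and 35.9 CPM in OE control. In the libraries labelled WT control it stood at 67.9, 55.7 and 74.8 CPM. Each OE library was thus well below each WT library, a difference of 1.88-fold (log2FC of -0.91 with SE 0.11, edgeR adjusted p = 0.166). When WT control 1 and 2 were omitted its log2FC was -1.09, with the highest of its WT control libraries kept. On Zn the groups overlapped at this gene, with 33.2, 37.0 and 32.3 CPM in OE and 46.8, 32.1 and 54.6 CPM in WT.

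The other 4 of these genes were higher in OE. Potri.015G003600 (chromosome 15, 251085 to 252707) stood at 135, 164 and 172 CPM in OE control and at 89.2, 95.4 and 100.02 CPM in the libraries labelled WT control. Potri.006G129900 (chromosome 6, 10635583 to 10637505) stood at 245, 302 and 284 CPM against 162, 178 and 174 CPM. At both genes the OE libraries lay above the WT libraries with a clear gap, with log2 fold changes of 0.73 (SE 0.10) and 0.69 (SE 0.09) and an edgeR adjusted p of 0.166 for each. Both also kept their groups apart on Zn, with log2 fold changes of 0.79 and 0.74. Potri.005G213500 (chromosome 5, 22673386 to 22678398) stood at 25.4, 29.8 and 28.3 CPM in OE control against 15.5, 15.3 and 11.7 CPM. Potri.002G128000 (chromosome 2, 9585966 to 9588281) stood at 7.10, 6.76 and 9.40 CPM against 2.95, 2.75 and 2.38 CPM. This pair had log2 fold changes of 0.97 (SE 0.13) and 1.52 (SE 0.20) with the same edgeR adjusted p of 0.166. On Zn their values were 0.11 and 0.08, with overlapping groups. When WT control 1 and 2 were omitted, Potri.006G129900, Potri.005G213500 and Potri.002G128000 had log2 fold changes from 0.67 to 1.70. Potri.015G003600 had 0.65 there. Potri.005G213500 had 1.25, with the lowest of its WT control libraries kept.

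By size of the difference, 10 genes higher and 10 lower in OE were taken from those outside the start of chromosome 13 with an unadjusted p under 0.05, no overlap and at least 5 CPM on average. The candidates numbered 667 higher and 755 lower. The 10 higher genes, among them the HSFA4a locus and Potri.002G128000, had log2 fold changes of 1.39 to 1.95 and edgeR adjusted p values of 0.166 to 0.549. Potri.008G141100 (chromosome 8) had the largest value, 1.95 (SE 0.75, edgeR adjusted p = 0.528). It stood at 17.6, 3.41 and 3.87 CPM in OE control and at 2.52, 2.54 and 1.34 CPM in the libraries labelled WT control. The size of that difference thus came from OE control 1, and without it the log2FC was 0.76. Potri.001G459100 (chromosome 1, log2 fold change 1.92, SE 0.74, edgeR adjusted p = 0.549) stood at 22.9, 32.0 and 35.4 CPM against 13.3, 9.26 and 0.872 CPM, with WT control 3 far below the others. In all 10 higher genes the lowest WT value was that of the library labelled WT control 3. A tighter separation was seen at Potri.006G107000 (chromosome 6), with 12.4, 10.4 and 12.6 CPM in OE control against 5.37, 5.24 and 2.85 CPM (log2FC of 1.39 with SE 0.23, edgeR adjusted p = 0.197). Potri.001G077400 (chromosome 1) was alike, with 9.49, 9.07 and 7.11 CPM against 3.49, 3.92 and 1.63 CPM (log2FC of 1.496, edgeR adjusted p = 0.206). The remaining 5 of the 10 were Potri.018G025900, Potri.006G055600, Potri.013G052100 and Potri.001G461900, with log2 fold changes of 1.79, 1.73, 1.51 and 1.47, and the HSFA4a locus. At Potri.006G055600 OE control 1 held 49.3 CPM against 16.9 and 16.3 CPM in the other OE libraries, and without it the log2FC was 0.9994. All 10 kept their sign without WT control 1 and 2, which the choice of genes without overlap fixes. Their log2 fold changes there ran from 1.70 to 5.10. Potri.001G459100 had 5.10, Potri.001G461900 3.49, Potri.001G077400 2.39 and Potri.006G107000 2.05. In all 10 the WT library kept by that omission was the lowest of the 3.

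The 10 lower genes had log2 fold changes of -0.95 to -1.78 and edgeR adjusted p values of 0.197 to 0.524. Potri.T111900, on a scaffold, stood at 8.32, 15.7 and 14.5 CPM in OE control and at 25.4, 40.7 and 66.7 CPM in the libraries labelled WT control (log2FC of -1.78 with SE 0.43, edgeR adjusted p = 0.342). Potri.016G057600 (chromosome 16, 3860522 to 3862044) stood at 21.4, 17.6 and 28.4 CPM against 72.0, 83.3 and 53.6 CPM (log2FC of -1.63 with SE 0.22, edgeR adjusted p = 0.197). At this gene every OE library was far below every WT library, and DESeq2 gave it an adjusted p of 1.29e-12. On Zn it was higher and far more scattered, at 98.7, 528 and 1430 CPM in WT and 200.4, 402 and 417 CPM in OE. Potri.014G066500 (chromosome 14) stood at 3.77, 3.74 and 3.37 CPM in OE control against 10.02, 7.38 and 6.74 CPM (log2FC of -1.15 with SE 0.20, edgeR adjusted p = 0.197). On Zn it went the other way, with OE at 2.49, 1.72 and 2.66 CPM and WT at 1.41, 1.46 and 1.20 CPM, again without overlap. Potri.009G044200 (chromosome 9) stood at 6.88, 9.35 and 8.06 CPM against 14.2, 16.5 and 17.5 CPM (log2FC of -0.99 with SE 0.15, edgeR adjusted p = 0.197). Potri.018G131500 (chromosome 18) stood at 8.65, 8.80 and 11.4 CPM against 15.01, 20.9 and 19.8 CPM (log2FC of -0.95 with SE 0.16, edgeR adjusted p = 0.197). The other 5 were Potri.T148700, Potri.013G100700, Potri.015G014000, Potri.011G074500 and Potri.012G079500, with log2 fold changes of -1.02, -1.01, -1.01, -1.003 and -0.95. Potri.013G100700 had 672 CPM in WT control 1 against 291 and 311 CPM in the other WT control libraries, and without WT control 1 its log2FC was -0.52. Potri.T148700 had -0.67 without WT control 3. The 10 genes kept their sign without WT control 1 and 2, which the choice of genes without overlap fixes. Their log2 fold changes there ran from -0.56 to -2.38. Potri.015G014000 had -1.42, with the highest of its WT control libraries kept. Of the 10 lower genes 6 had their highest WT value in the library labelled WT control 3.

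**Figure D2:**
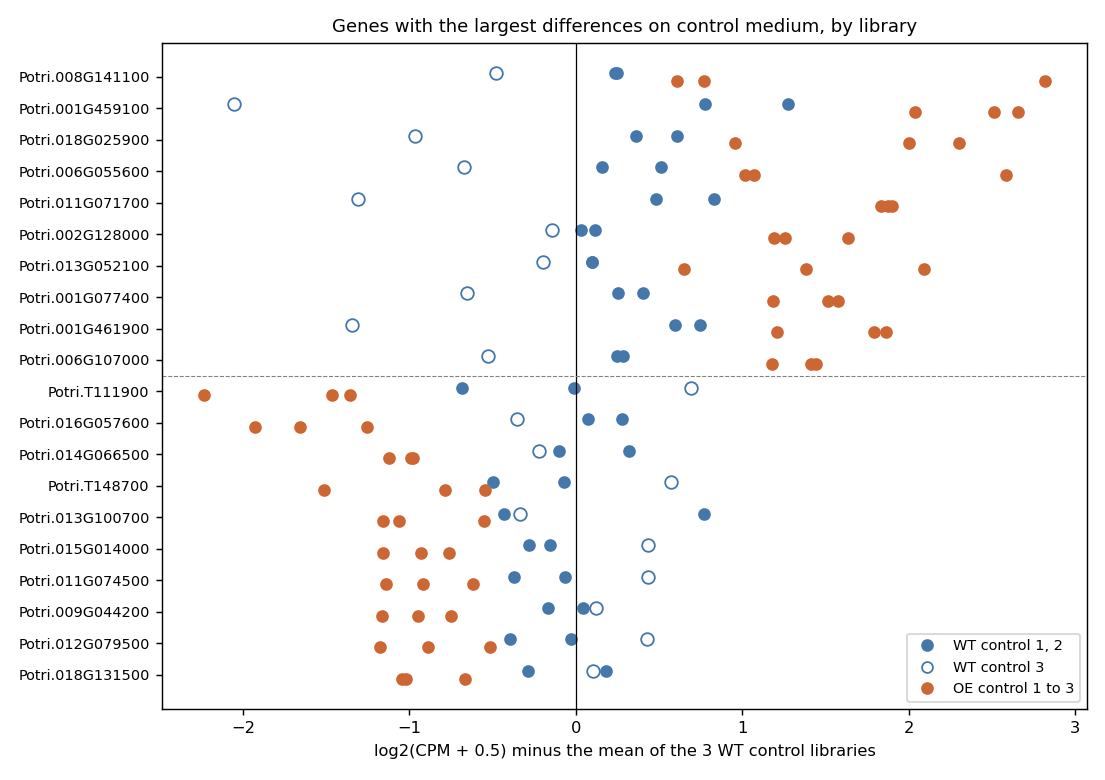
Each row is 1 of the 10 higher (top) and 10 lower (bottom) genes; the x axis gives log2(CPM + 0.5) of each control library minus the mean of the 3 libraries labelled WT control. OE libraries (orange) lie on 1 side of all WT libraries (blue) in every row, and WT control 3 (open) is the lowest WT library in all 10 upper rows.

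A further 2 genes called by DESeq2 on the lower side had narrow groups. Potri.001G289700 (chromosome 1) stood at 8.27, 9.40 and 10.4 CPM in OE control and at 17.1, 17.2 and 16.04 CPM in the libraries labelled WT control (log2FC of -0.84 with SE 0.12, edgeR adjusted p = 0.18; DESeq2 adjusted p = 0.000241). Potri.002G000100, the first gene of chromosome 2, stood at 81.8, 81.2 and 82.4 CPM against 108, 110.4 and 113 CPM. Its libraries agreed within each group to a few CPM (log2FC of -0.44 with SE 0.06, edgeR adjusted p = 0.18; DESeq2 adjusted p = 0.000303). Without WT control 1 and 2 these 2 genes and Potri.009G130000 had log2 fold changes from -0.47 to -1.09.

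The Zn libraries gave the same genotype contrast in libraries that the control comparison does not use. Of 24245 genes tested in both media outside the start of chromosome 13, 134 were higher in OE without overlap in both (0.553%) and 153 lower in both (0.631%). The 134 were 7.76% of the genes apart and higher on control and 8.95% of those on Zn. The 153 were 8.58% and 9.36% of the lower lists. Opposite directions without overlap were seen for 80 genes higher on control and lower on Zn, 4.63% of the higher control list. For 81 genes it was the other way, 4.54% of the lower control list. On Zn alone edgeR called 4 of 25264 genes (0.0158%), and the groups stood apart for 6.15% of genes higher and 6.77% lower in OE. At an unadjusted p under 0.05 in both media, 179 genes had the same sign and 47 opposite signs. When WT control 3 was omitted, the same directions in both media numbered 210 and 317 and the opposite ones 128 and 121. When WT control 1 and 2 were omitted they numbered 424 and 518 against 554 and 513. Groups with fewer libraries stand apart more easily by construction. Shares of the control lists were not counted with libraries omitted, so those numbers are not compared with the ones above.

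The genes with the largest smaller-of-the-two differences were then listed, 8 in each direction, among those apart in both media with a mean of at least 5 CPM over the 12 libraries. This list was made after values were seen. Potri.T051700 (a scaffold, 130858 to 151503) led the higher ones. It stood at 12.9, 7.31 and 3.30 CPM in OE control and at 0.726, 0.254 and 0.116 CPM in the libraries labelled WT control. It stood at 23.0, 17.0 and 18.8 CPM in OE Zn and at 0.141, 0.182 and 0.750 CPM in WT Zn. In all 6 OE libraries this gene was thus clearly counted and in the 6 WT libraries it stood at 0.750 CPM at most. Its log2 fold change was 4.35 (SE 0.71, edgeR adjusted p = 0.199; DESeq2 adjusted p = 0.000345) on control and 5.73 (SE 0.41, edgeR adjusted p = 0.0183) on Zn. It overlaps Potri.T051900 and Potri.T051800 on the same strand, so reads of these genes may not be told apart.

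Potri.010G035500 (chromosome 10, 6179489 to 6180663) stood at 18.03, 20.1 and 22.6 CPM in OE control and at 11.6, 9.06 and 6.80 CPM in the libraries labelled WT control. On Zn it stood at 25.0, 20.7 and 16.7 CPM against 5.82, 8.26 and 8.74 CPM. Across both media every OE library was above every WT library (log2FC of 1.14 with SE 0.18 on control and 1.45 with SE 0.20 on Zn, edgeR adjusted p = 0.197 and 0.247). The other higher genes were Potri.001G461700, Potri.T034600, Potri.003G111900, Potri.019G088500, Potri.015G003600, and the HSFA4a locus itself. Potri.003G111900 (chromosome 3) had log2 fold changes of 0.86 on control and 0.92 on Zn, and Potri.T034600 (a scaffold) 0.95 and 0.91. Potri.001G461700 lies near Potri.001G459100 and Potri.001G461900 at the end of chromosome 1, and all 3 were lowest in the library labelled WT control 3, at 1.86, 0.872 and 1.05 CPM. Without that library Potri.001G461700 had a log2FC of 0.75, and without OE control 1 Potri.019G088500 had 0.44 in place of 0.79. When WT control 1 and 2 were omitted, Potri.010G035500 had a log2FC of 1.57 and Potri.001G461700 one of 3.36. At both genes the WT library kept was the lowest of its group.

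Among the lower genes Potri.013G074500 (chromosome 13, 6385810 to 6388841, outside the start region) stood at 19.03, 22.6 and 15.9 CPM in OE control against 32.6, 26.6 and 37.1 CPM. On Zn it stood at 15.3, 18.9 and 17.7 CPM against 34.1, 34.8 and 38.1 CPM. The groups were again apart in both media, by log2 fold changes of -0.74 (SE 0.16, edgeR adjusted p = 0.252) and -1.04 (SE 0.10, edgeR adjusted p = 0.0453). Potri.008G131300 (chromosome 8) stood at 45.9, 80.5 and 80.1 CPM in OE control against 103, 123 and 134 CPM, and its log2 fold change was -0.80 on control and -0.79 on Zn. Potri.018G131500, named above, had -0.95 and -0.82. The other 5 lower genes, Potri.014G106500, Potri.003G188000, Potri.015G144800, Potri.019G074400 and Potri.009G037000, had values from -0.58 to -0.76 on control and from -0.63 to -1.003 on Zn. Potri.009G037000 had -0.29 in place of -0.58 without WT control 1, and Potri.015G144800 -0.42 in place of -0.66 without WT control 3. None of the 8 passed with edgeR without WT control 1 and 2, and their values there ran from -0.19 to -1.12.

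**Figure D3:**
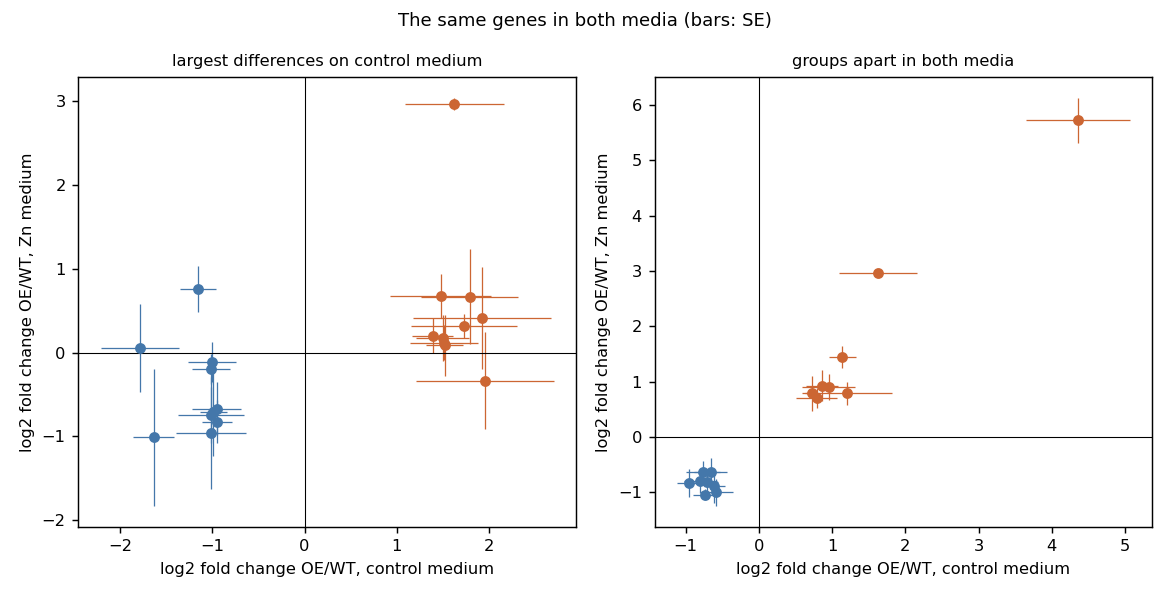
Log2 fold change of OE over WT on control medium (x) and on Zn (y), with SE bars, for the 20 genes with the largest differences on control (left) and the 16 genes chosen for being apart in both media (right). On the left 17 of 20 points share a sign in both media, a share not counted over all genes. On Zn 1 of the 10 higher genes (the HSFA4a locus) and 3 of the 10 lower ones were apart in the same direction. Of all genes apart on control outside the start of chromosome 13, 7.76% of the higher and 8.58% of the lower were so. In the opposite direction 1 lower gene was apart, where 4.54% of all lower genes apart on control were. On the right the choice itself fixes the shared sign.

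Lignin and cellulose genes mark lignifying vascular tissue, and they were looked at as published *P. trichocarpa* IDs. In bulk roots fewer cells of a type and less RNA per cell cannot be told apart. Phenylalanine ammonia-lyase (PAL), cinnamate 4-hydroxylase and 4-coumarate-CoA ligase open the phenylpropanoid pathway, and further enzymes lead to the lignin precursors. Of 22 such IDs, 21 were in the files and tested. None passed (0%; edgeR smallest adjusted p 0.49), 7 had higher and 14 lower values in OE, and the median log2 fold change was -0.05, beside -0.003 over all genes tested. The most abundant was the cinnamyl alcohol dehydrogenase Potri.009G095800, with 428 FPKM in OE control and 448 FPKM in the libraries labelled WT control. In counts it stood at 668, 687 and 649 CPM against 670, 709 and 732 CPM (log2FC of -0.08 with SE 0.08, edgeR adjusted p = 0.825). The PAL gene Potri.006G126800 stood at 434, 507 and 427 CPM against 460, 398 and 559 CPM, with broad overlap. The member with the smallest p was Potri.009G099800, a caffeoyl-CoA O-methyltransferase, at 119, 138 and 140.4 CPM against 148, 149 and 187 CPM (log2FC of -0.29 with SE 0.11, edgeR adjusted p = 0.49). This gene had -0.17 without WT control 3. The list median was 0.01 without WT control 3 and -0.11 without WT control 1 and 2.

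The 5 cellulose synthase subunits of the secondary wall all had lower values in OE, with log2 fold changes of -0.25 to -0.37 and a median of -0.28, and none passed (edgeR smallest adjusted p 0.659). Their summed level was 172, 231 and 243 CPM in OE control and 296, 200.4 and 304 CPM in the libraries labelled WT control. WT control 2 lay inside the OE range, so the groups overlapped. The median was -0.17 without OE control 1, -0.46 without WT control 2 and -0.49 without WT control 1 and 2. The most abundant member, Potri.002G257900, stood at 51.0, 73.5 and 76.2 CPM against 96.9, 64.9 and 97.9 CPM (log2FC of -0.37 with SE 0.21, edgeR adjusted p = 0.659), and had -0.21 without OE control 1. NAC and MYB factors switch on secondary wall formation. Of 8 such IDs 7 were tested, 5 with lower and 2 with higher values in OE, and none passed (edgeR smallest adjusted p 0.575). The median was -0.24, and it was -0.11 without OE control 1 and -0.30 without WT control 1 and 2. The most abundant, the NAC factor Potri.011G153300, stood at 5.33, 7.70 and 8.70 CPM in OE control against 9.15, 7.28 and 9.24 CPM. The MYB factor Potri.009G053900 stood at 1.997, 2.14 and 2.92 CPM against 3.34, 3.31 and 3.31 CPM (log2FC of -0.50 with SE 0.23, edgeR adjusted p = 0.575).

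Clock genes report on the time of day at which tissue is taken, since in plants LHY peaks near dawn and TOC1 near dusk and each represses the other. All 3 clock IDs had lower values in OE, with log2 fold changes of -0.26 to -0.27, and none passed (edgeR smallest adjusted p 0.337). The TOC1 gene Potri.015G061900 stood at 33.0, 32.9 and 31.3 CPM in OE control and at 39.98, 39.4 and 37.4 CPM in the libraries labelled WT control. Its groups stood clearly apart (log2FC of -0.27 with SE 0.07, edgeR adjusted p = 0.337). The LHY gene Potri.014G106800 stood at 349, 411 and 452.9 CPM against 535, 474 and 452.96 CPM, so that OE control 3 all but met the library labelled WT control 3. The second LHY gene, Potri.002G180800, stood at 218, 256 and 281 CPM against 328, 301 and 273 CPM, with overlap. On Zn the 3 genes had log2 fold changes of 0.04 to 0.22. Without OE control 1 both LHY values shrank, to -0.17 for Potri.014G106800 and -0.16 for Potri.002G180800, and without WT control 1 and 2 the list median was -0.16. Both LHY genes overlap a gene on the opposite strand. The hour at which the roots were taken is not given in the labels, and its part in these values was not tested.

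Genes at the start of chromosome 13, with starts below 2300000, were kept in the fit and are given apart. The files hold 323 such genes, of which 231 were tested. Of these 220 had higher and 11 lower values in OE, and 141 stood above WT without overlap (61%, where the rest of the genome had 7.05%). An unadjusted p under 0.05 was reached by 131 of them (56.7%), all higher. None was apart in the lower direction, and none passed with edgeR. The median log2 fold change was 0.55 (interquartile range 0.39 to 0.67), a ratio of 1.46, while the other 727 tested genes of the chromosome had -0.02. The WT libraries differed among themselves. Relative to the mean of the OE control libraries, the median gene stood at 0.853 in the library labelled WT control 1, at 0.709 in WT control 2 and at 0.530 in WT control 3. The OE control libraries stood at 0.987 to 1.01, which lie around 1 by construction but close together. The shift thus had a different size in each WT library, and without WT control 3 the median was 0.36. Without the libraries labelled WT control 1 and 2 it was 0.95.

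By position the shift was even. In steps of 200 kb the median ran from 0.35 to 0.65, the lowest in the last step with 8 genes. At the end of the region Potri.013G034100 (start 2278510) had a log2 fold change of 0.77, Potri.013G034600 (start 2299361), the last gene inside, -0.07, and Potri.013G034800 (start 2307032), the first outside, 0.06. The genes of largest difference in the region, among those without overlap and with at least 5 CPM on average, were Potri.013G033300, Potri.013G010700 and Potri.013G000500. The most abundant of them, Potri.013G000500 (30889 to 32240), stood at 714, 489 and 517 CPM in OE control and at 321, 320.001 and 169 CPM in the libraries labelled WT control (log2FC of 1.08 with SE 0.28, edgeR adjusted p = 0.348). Its WT control 3 value was close to that of WT Zn 3, 181 CPM, while WT Zn 1 and 2 stood at 706 and 671 CPM. Potri.013G033300 stood at 7.99, 9.18 and 8.25 CPM against 5.52, 3.87 and 1.69 CPM (log2FC of 1.18 with SE 0.35, edgeR adjusted p = 0.379) and overlaps genes of the opposite strand. Potri.013G010700 stood at 34.5, 17.98 and 17.9 CPM against 14.04, 12.4 and 5.70 CPM (log2FC of 1.13 with SE 0.41, edgeR adjusted p = 0.513), and had 0.74 without OE control 1. When WT control 1 and 2 were omitted, Potri.013G033300, Potri.013G010700 and Potri.013G000500 had log2 fold changes from 1.76 to 2.32. At each of them the WT library kept was the lowest of its group. On Zn the region had a median log2 fold change of 0.25. There 20 of 229 genes stood above WT without overlap and 1 below. Outside the region 6.15% of genes stood above and 6.77% below on Zn.

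The start of chromosome 2 showed a shorter group of neighbours that went the other way. It was found after values were seen, among the genes with the smallest p. The first 5 genes with a mean above 3 CPM, from 4173 to 63718, had log2 fold changes of -0.44, -0.55, -0.52, -0.38 and -0.53, a median ratio of 0.695. The next gene, Potri.002G001000 (start 69885), had -0.02, and the 20 genes after the fifth had a median of -0.09. Of the 5, 4 stood below WT without overlap, where 7.41% of genes outside the start of chromosome 13 did. Potri.002G000200 stood at 20.2, 20.2 and 19.6 CPM in OE control and at 29.5, 31.1 and 27.5 CPM in the libraries labelled WT control (SE 0.09, edgeR adjusted p = 0.197). Potri.002G000300 stood at 106, 113 and 108 CPM against 142, 148 and 180.2 CPM (SE 0.10, edgeR adjusted p = 0.199). Potri.002G000800 stood at 57.1, 49.9 and 54.2 CPM against 75.4, 73.1 and 85.1 CPM (SE 0.09, edgeR adjusted p = 0.197). These 3 genes and Potri.002G000100 were thus lower in each OE library by a similar share. Potri.002G000500 overlapped, with 38.8, 29.0 and 31.6 CPM against 36.9, 44.0 and 48.3 CPM. A low gene between them, Potri.002G000600, had 31, 40 and 22 counts in OE control and 35, 39 and 26 counts in the libraries labelled WT control. No edgeR call was made among them. DESeq2 called 4 of the 5, where it called 0.348% of genes lower outside the start of chromosome 13. As the 5 were chosen after their values were seen, a high share is built in. Leaving out 1 library at a time gave medians from -0.42 to -0.55. Without WT control 1 and 2 the median was -0.55. Potri.002G000300 had the largest log2FC of the 5 there, -0.73, with the highest of its WT control libraries kept.

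Library by library, the first 5 genes of chromosome 2 and the start of chromosome 13 stood in opposite directions. Relative to the OE mean in the same medium, the median of the 5 genes was 1.32 in the library labelled WT control 1, 1.36 in WT control 2 and 1.46 in WT control 3. In WT Zn 3 it was 1.62, while the other WT Zn libraries had 0.971 and 1.01. The libraries high at the start of chromosome 2 were thus the same 4 that were low at the start of chromosome 13. For the libraries labelled WT control the height on chromosome 2 is built in, since the 5 genes were chosen by their control values. WT Zn 3 had no part in that choice. At the start of chromosome 13 WT Zn 3 had 0.536, and both other WT Zn libraries had 1.01. The 3 OE Zn libraries ran from 0.920 to 1.10 for the 5 genes and from 1.00 to 1.01 for the start of chromosome 13. In WT Zn 3 Potri.002G000100 stood at 130.3 CPM against 70.6 and 79.1 CPM in WT Zn 1 and 2, and Potri.002G000800 at 83.3 CPM against 53.0 and 49.3 CPM. The HSFA4a locus did not sort the libraries this way, since WT Zn 3, at 33.0 CPM, matched WT Zn 1 and 2 there. At the HSFA4a locus the libraries labelled WT control 1 and 2 were high, and at these chromosome starts WT control 3 stood the farthest of the control libraries from OE.

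**Figure D4:**
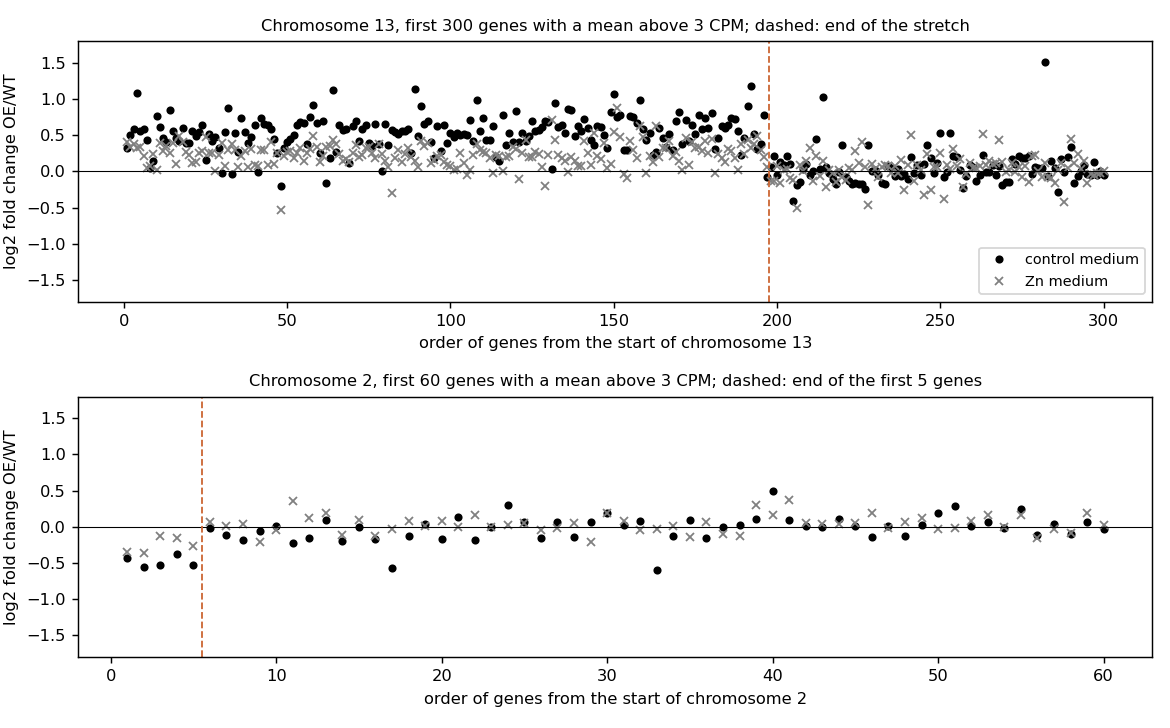
Log2 fold change of OE over WT (y) for genes in their order from the start of chromosome 13 (top, 300 genes) and chromosome 2 (bottom, 60 genes), on control medium (dots) and Zn (crosses). On control the values sit near 0.55 up to the dashed line at the top and near -0.52 for the first 5 genes at the bottom, then near 0.

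**Figure D5:**
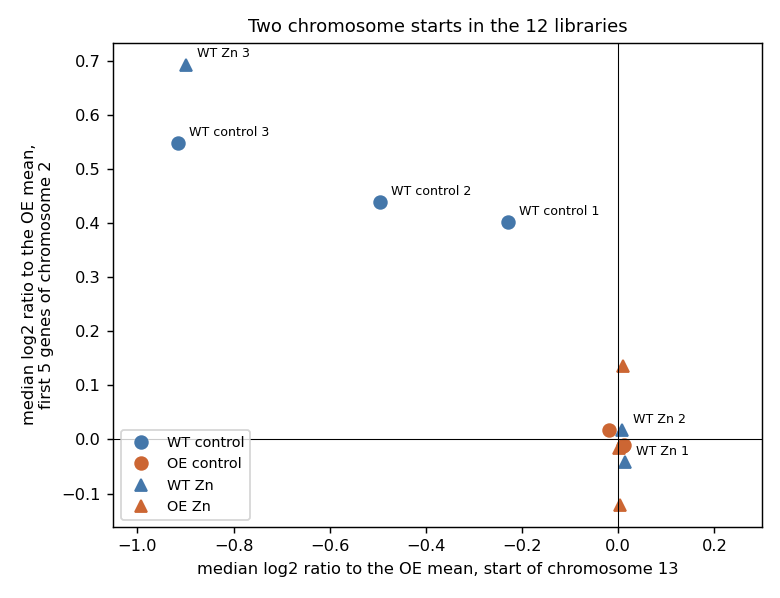
Median log2 ratio to the OE mean of the same medium for the 231 genes at the start of chromosome 13 (x) and the first 5 genes of chromosome 2 (y), 1 point per library. The 3 libraries labelled WT control and WT Zn 3 lie to the upper left, and the other 8 libraries lie near 0 on both axes. The choice of the 5 genes by their control values builds in the height of the libraries labelled WT control.

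Runs of neighbouring genes were counted over all chromosomes, again after values were seen. Among 20130 genes with a mean above 3 CPM, 19 runs of at least 4 consecutive genes stood apart in 1 direction, and 15 of these, with 88 genes, lay at the start of chromosome 13. The 4 runs elsewhere held 4 genes each. They were on chromosome 3 (19015508 to 19046376), chromosome 10 (16672884 to 16702902) and chromosome 18 (15194162 to 15231238) with lower values in OE, and on chromosome 16 (13038150 to 13099016) with higher values. Their median log2 fold changes were -0.47, -0.24, -0.36 and 0.22, and on Zn 0.15, -0.14, 0.04 and 0.04.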

How the data were processed

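Root RNA was extracted by a CTAB method and prepared with a TruSeq kit, per the labels' protocols. The submitters' processing notes list TopHat2 2.1.1 and HTSeq 0.6.0. For the genome build, the strand setting and reads with several alignments, nothing is given in the sources used here. The deposited files hold an estimated count, an FPKM value and a normalized signal for each of 39602 genes, 223 of them named as new; IDs are printed without their version suffix. The deposited counts are whole numbers. They equal the counts implied by the authors' normalized signal for 65.9% to 67.2% of detected genes and are 1 higher for 32.8% to 34.1%, so they are treated as estimated counts. The authors' FPKM values served to compare genes and not for tests.

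Tests were run in R 4.3.3 on the 6 control libraries alone (edgeR 4.0.16, filterByExpr, TMM scaling, robust quasi-likelihood F-test, 4 residual degrees of freedom before moderation, Benjamini-Hochberg over all genes tested, threshold 0.05). SE is the absolute log2 fold change over the square root of F. The biological coefficient of variation was 13.5%. The Zn libraries were fitted in the same way, apart. DESeq2 1.42.0 and limma 3.58.1 served as alternatives, beside other scalings, filters, samples and counts. On simulated counts for this comparison, with 24875 genes, edgeR found 28 of the 67 genes given a 1.5-fold change. It found 48 of 67 at 2-fold and 57 of 66 at 4-fold, and made 15 false calls in 24675 genes. Counts were drawn gene by gene from the estimated spread, without shifts that many genes of a library share. Recovery in the real libraries may therefore differ.

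Named genes are the HSFA4 loci, 10 per direction outside the start of chromosome 13 as described, 3 per direction in it, list members with an unadjusted p under 0.05 or the highest FPKM, and, by edgeR p, 3 per direction of the DESeq2 calls. Others are said to be chosen after values were seen, or head a count. Members and lists were chosen with earlier results of these data known. Libraries are numbered in order of deposit. Lists defined by gene descriptions, a promoter motif and markers of leaf or dividing cells were not used here, since no annotation was at hand.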

Additional observations from a re-analysis of the deposited data

Results flagged for a closer look

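Potri.014G066500 differed between genotypes in opposite directions in the 2 media. On control medium its log2 fold change of OE over WT was -1.15, with all 3 OE libraries below all 3 libraries labelled WT control. On Zn it was 0.76, with each OE library higher than each WT library. The interaction of genotype and Zn, tested with edgeR over 25871 genes in all 12 libraries, had an unadjusted p of 4.5e-05 and an adjusted p of 0.552 for this gene, so the difference did not pass. No gene passed that interaction test, and 1627 had an unadjusted p under 0.05.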

How the results depend on the processing

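The count of 0 genes called by edgeR stayed at 0 with limma-voom, upper-quartile or median-ratio scaling, a filter of 1 CPM in 3 libraries, all 12 libraries in the fit, counts implied by the normalized signal, the robust option off, and the start of chromosome 13 left out. It was 233 with DESeq2, 5 without a low-count filter, 0 to 1 when each library was left out, and 159 when WT control 1 and 2 were both left out. Many of those 159 genes lay at the start of chromosome 13, where WT control 3, the library kept, was the lowest. The 159 is therefore not read as a count of differences across the genome. The count at an unadjusted p under 0.05 ran from 1486 without OE control 1 to 2473 without OE control 2. The HSFA4a locus had log2 fold changes of 1.21 to 2.03 when each library was left out, passing at 1.21 without WT control 3, and 3.20, also passing, without WT control 1 and 2. The start of chromosome 13 had medians of 0.36 to 0.71 when each library was left out, and 0.95 without WT control 1 and 2. Of 1034 values for 61 other named genes under other settings, 985 stayed on the same side, 43 came to pass (27 of them with DESeq2) and 6 turned sign. Those 6 belonged to 3 genes near 0 on chromosome 2. With each library left out, Potri.002G001000 ran from -0.071 to 0.013, Potri.002G001700 from -0.046 to 0.070 and Potri.002G001900 from -0.36 to 0.0047. The causes were not tested. No paired analysis was possible because the labels carry no replicate numbers shared between groups. With 3 libraries a group, differences of 1.5-fold were mostly not callable in the simulation.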
